A study of Mus musculus with 4 samples.

Results

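The 6 genes described here encode chains of the fibrillar collagens of types I, III and V. They were taken by symbol from the 31053 genes listed in each of 4 single-cell matrices, and all 6 were found. Col1a1 and Col1a2 encode the chains of type I collagen, the main fibril of most connective tissues. Col3a1 encodes the chain of type III collagen, which builds thin fibrils in extensible tissue and vessel walls. Col5a1, Col5a2 and Col5a3 encode chains of type V collagen, which co-assembles with type I and helps to start fibrils and to set their width.

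Fibrillar procollagens are made as long triple helices in the endoplasmic reticulum, where prolines and lysines are hydroxylated and chaperones hold the chains. The trimers leave the cell in enlarged transport carriers, lose their end propeptides outside it and then align into fibrils that are cross-linked and coated with small proteoglycans. In salivary glands fibroblasts are known as the main producers, and after injury the balance between deposition and removal of fibrils shapes scarring or repair.

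The libraries came from the submandibular gland of female C57BL6/J mice, dissociated and depleted of EpCAM-positive epithelial cells, Ter119-positive red cells and dead cells. In the deligated group a clip had closed the main duct, an operation that covered the submandibular and the sublingual gland, for 14 days and had then been off for 5 days, and the mice were 14 weeks old. The homeostatic group had no surgery and was harvested at 12 weeks of age, so that age and surgery cannot be told apart. Each group held 2 libraries, the labels do not say that they came from separate animals, and p-values therefore measure the spread between these libraries, which may be technical.

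The deligated libraries held 4725 and 8713 barcodes and the homeostatic ones 12854 and 13266, with 35662241 to 53898793 UMIs (unique molecular identifiers, one per captured RNA molecule) per library. Cells were assigned to a class by the number of its marker genes with a UMI, no collagen being a marker, and cells that met the gates of more than 1 class were left out. Fibroblast-like cells numbered 338 and 658 in the deligated and 302 and 303 in the homeostatic libraries, with median depths of 12976.5, 9038.5, 6730.5 and 6560 UMIs. Their sums held 14957 to 18391 CPM (counts scaled to a common class total) of the fibroblast marker Dcn and at most 9.36 CPM of the leukocyte marker Ptprc. The 10 mural markers summed to 228 and 229 CPM in the deligated and 154 and 154 CPM in the homeostatic fibroblast sums, the 8 Schwann markers to 58.9 and 62.9 against 110 and 128 CPM, and the 9 epithelial markers to 6.57 and 9.88 against 51 and 41.8 CPM, and their part in the results was not tested. In a clustering of all cells, most deligated and most homeostatic fibroblasts lay in different clusters: one cluster held 375, 852, 32 and 28 cells and the other 8, 0, 335 and 327, in the order of the libraries above. Between 14 and 54 barcodes were shared between any 2 libraries. The replicate libraries of either group differed by more than sampling noise, with a chi-square per degree of freedom in fibroblast sums of 22.7 for the deligated and 1.74 for the homeostatic pair.

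On the mouse build GRCm38 the 6 genes lie on 5 chromosomes, and none overlaps another annotated gene of the matrices. Col1a1 is at chr11:94936224-94953042 and Col1a2 at chr6:4504814-4541544, both on the plus strand. Col3a1 at chr1:45311538-45349706 on the plus strand and Col5a2 at chr1:45374321-45503282 on the minus strand are neighbours 24.6 kb apart that run towards each other. Col5a1 is at chr2:27886425-28039514 on the plus strand and Col5a3 at chr9:20770050-20815067 on the minus strand. The genes differ in intron length, with 144.6 kb in Col5a1 and 119 kb in Col5a2 against 10.3 to 38.2 kb in the other 4.

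Because most members moved together in the comparisons that follow, the 150 bases before the annotated RefSeq start (GRCm38.p6) are shown for the 4 members with an entry. Capitals mark a CCAAT box, the GC box GGGCGG and the TATA box TATAAA, each searched on both strands, so that CCGCCC marks a GC box on the opposite strand. The RefSeq start of Col1a2 lies downstream of the gene start given above.
Col1a2 chr6:4505468-4505617, plus strand: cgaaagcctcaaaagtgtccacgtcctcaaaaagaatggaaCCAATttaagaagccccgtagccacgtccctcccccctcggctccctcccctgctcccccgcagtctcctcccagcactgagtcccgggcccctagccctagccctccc
Col3a1 chr1:45311388-45311537, plus strand: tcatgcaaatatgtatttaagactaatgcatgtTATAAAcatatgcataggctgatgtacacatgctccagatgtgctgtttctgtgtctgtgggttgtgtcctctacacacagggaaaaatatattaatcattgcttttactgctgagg
Col5a1 chr2:27886275-27886424, plus strand: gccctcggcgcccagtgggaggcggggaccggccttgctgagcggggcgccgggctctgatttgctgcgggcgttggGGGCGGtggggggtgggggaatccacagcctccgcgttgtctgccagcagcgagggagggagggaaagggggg
Col5a3 chr9:20815068-20815217, minus strand: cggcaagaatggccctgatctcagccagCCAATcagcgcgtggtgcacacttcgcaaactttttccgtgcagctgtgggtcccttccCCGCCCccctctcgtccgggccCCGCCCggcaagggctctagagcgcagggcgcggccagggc

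The windows did not share 1 arrangement of these motifs. A CCAAT box stood in the windows of Col1a2 and Col5a3, as in 24.5% of 32851 RefSeq windows of this length. A GC box stood in those of Col5a1 and Col5a3, as in 28.6% of windows, and the TATA letters in that of Col3a1, as in 7.57%. The GC content ran from 37.3% in the Col3a1 window to 74.7% in the Col5a1 window, with a median of 54% over all windows. A match is a run of letters and not a measured site.

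The members' messages were concentrated in fibroblast-like cells, the mesenchymal cells that make the gland's connective tissue. These cells were 7.48% and 7.85% of retained cells in the deligated libraries and 2.58% and 2.51% in the homeostatic ones. They held 82.5% and 73.3% of the members' UMIs in the deligated and 80.7% and 80.5% in the homeostatic libraries. Cells left out for meeting more than 1 gate held another 13.3 to 22.4%, and mural-like cells, the pericytes and smooth muscle of vessel walls, held 1.49 to 2.23%. Summed over all retained cells, the level of the members was 3.56-fold (Col5a3) to 8.89-fold (Col1a1) higher in the deligated group, a sum in which more fibroblasts and more RNA per fibroblast cannot be told apart. Comparisons within a class follow for that reason.

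In both groups the order among the 7 classes shown was fibroblast-like, then Schwann-like, then mural-like, then endothelial-like, lymphoid and macrophage-like cells. Schwann-like cells are the glia of nerve fibres. Only the Schwann-like and mural-like levels of Col5a2 in the homeostatic group overlapped between libraries among these first 3 classes. The homeostatic level of Col3a1 was 2857 ± 50.5 CPM (SD, n = 2) in fibroblast-like, 544 ± 207 in Schwann-like and 176 ± 37.9 in mural-like cells. In endothelial-like, lymphoid and macrophage-like cells the members stayed at or below 32.2 CPM, and neighbouring classes there mostly overlapped in the deligated group.

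**Figure D1:**
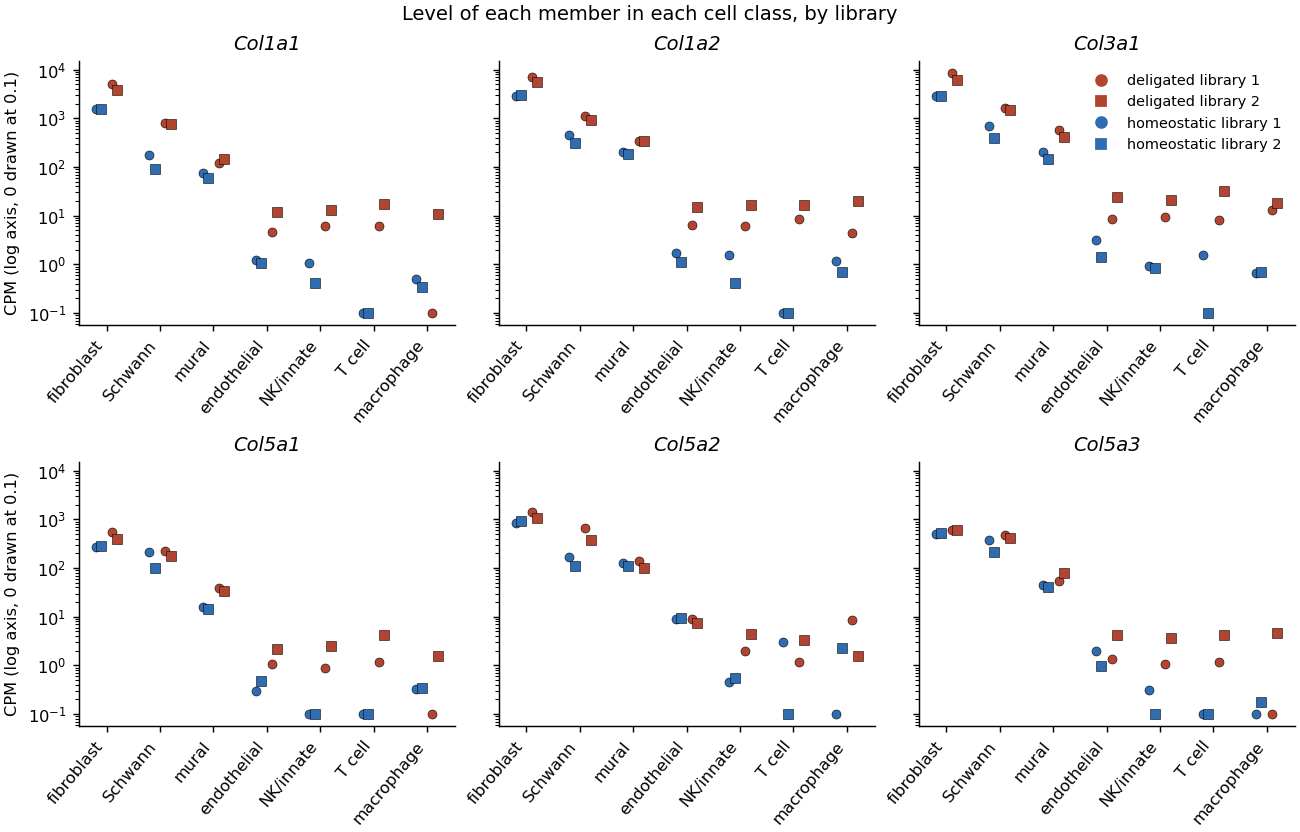
CPM of each member (log axis, values of 0 drawn at 0.1) in the summed UMIs of 7 cell classes, with 1 point per library and colour for the group. Fibroblast-like, Schwann-like and mural-like cells stand above the other classes for every member, and deligated library 2 is the higher of the deligated pair in endothelial-like, NK and T cells for all members but Col5a2 in endothelial-like cells.

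Col1a1 was measured at 5062 and 3823 CPM in the fibroblast-like cells of the deligated libraries and at 1566 and 1578 CPM in those of the homeostatic libraries. Both deligated values lay more than 2-fold above both homeostatic ones. The log2 fold change was 1.56 (standard error 0.16, edgeR quasi-likelihood adjusted p = 4.17e-05, n = 2 libraries per group). Col1a2 was at 7166 and 5605 CPM in the deligated and 2877 and 3064 CPM in the homeostatic libraries. Its log2 fold change was 1.16 (standard error 0.15, edgeR adjusted p = 0.00023). Both chains of type I collagen thus rose, and no library of one group reached the values of the other.

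Col3a1 was at 8497 and 6224 CPM in the deligated and 2893 and 2822 CPM in the homeostatic libraries. The groups did not overlap, and its log2 fold change was 1.42 (standard error 0.17, edgeR adjusted p = 0.000103). Deligated library 1 was the highest of the 4 for all 6 members.

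The type V chains moved less in this fit. For Col5a1 and Col5a2 that order did not hold with a trend over intron length removed (1.76 and 1.34, given below). Col5a1 was at 538 and 394 CPM in the deligated and 274 and 284 CPM in the homeostatic libraries, a log2 fold change of 0.80 (standard error 0.17, edgeR adjusted p = 0.00503). Col5a2 was at 1432 and 1062 against 860 and 922 CPM, a log2 fold change of 0.54 (standard error 0.16, edgeR adjusted p = 0.029). Col5a3, the third type V chain, was at 603 and 593 against 509 and 527 CPM. Its 4 values also separated by group, but the log2 fold change of 0.26 (standard error 0.12) did not pass the threshold (edgeR adjusted p = 0.128).

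In all, 5 of the 6 members were called higher in deligated fibroblast-like cells at an adjusted p under 0.05, against 8.88% of the 11434 genes tested in that direction. Their median log2 fold change was 0.98, beside 0.01 over all genes. In the other direction no member was called, beside 18.3% of genes. The count was 3 without either homeostatic library and 3 in cells thinned to 1000 UMIs, where Col5a1 and Col5a2 were no longer called, and Col5a2 alone was also lost without the low-count filter and in fibroblasts taken from clusters. The log2 fold change of Col5a2 was 0.28 without deligated library 1 and 0.80 without deligated library 2, and that of Col5a1 was 0.52 and 1.06.

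**Figure D2:**
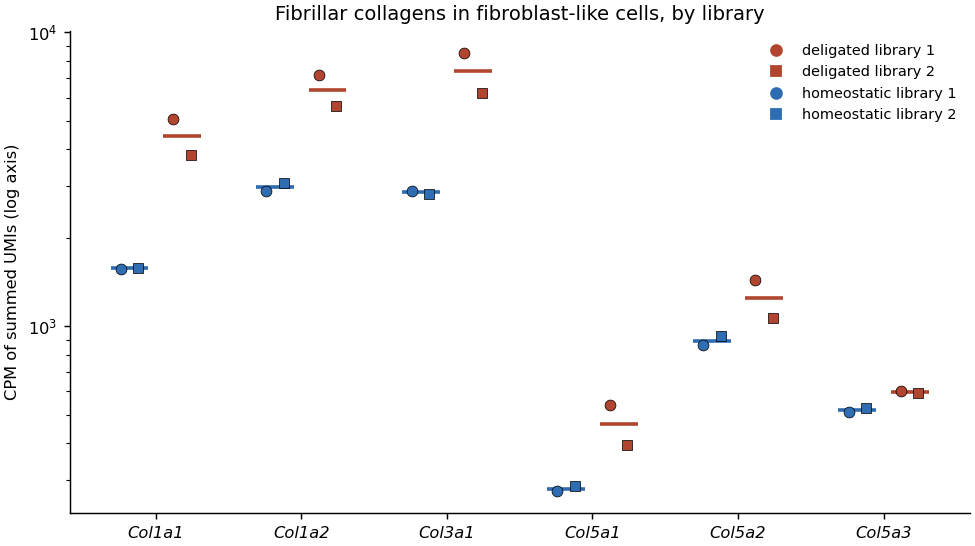
CPM of the members in fibroblast-like cells (log axis), 1 point per library and a line at the group mean. Each of the 6 members is higher in both deligated libraries than in both homeostatic ones, by least for Col5a3 with 593 to 603 against 509 to 527 CPM. The share of all genes that separate in this way is not given.

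Long genes were lower in the deligated libraries as a whole. Over 11429 genes tested in fibroblast-like cells the Spearman correlation of the log2 fold change with total intron length was -0.53, and the 1509 genes with more than 100 kb of intron had a median log2 fold change of -1.01. The deligated files name Cell Ranger 6.0.1 and the homeostatic files Cell Ranger 7.0.0 in their headers, so that the software release and the group cannot be told apart. The later release counts intronic reads by default and the earlier one does not. Which setting was used is not given in the sources used here, so introns may have been counted in the homeostatic group alone, which limits what the levels and fold changes of long genes mean between the groups. Col5a1 and Col5a2 are the 2 members above 100 kb. With the trend over intron length removed, their log2 fold changes were 1.76 and 1.34, that of Col5a3 was 0.47 (edgeR adjusted p = 0.0196) and those of Col1a1, Col1a2 and Col3a1 were 1.41, 1.22 and 1.53. All 6 members were then called higher, and genes called higher made up 54.7% of all called genes in place of 32.6%. These are shares of the called genes. The share of all tested genes called higher under this setting is not given, so the count of 6 cannot be weighed against it.

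**Figure D3:**
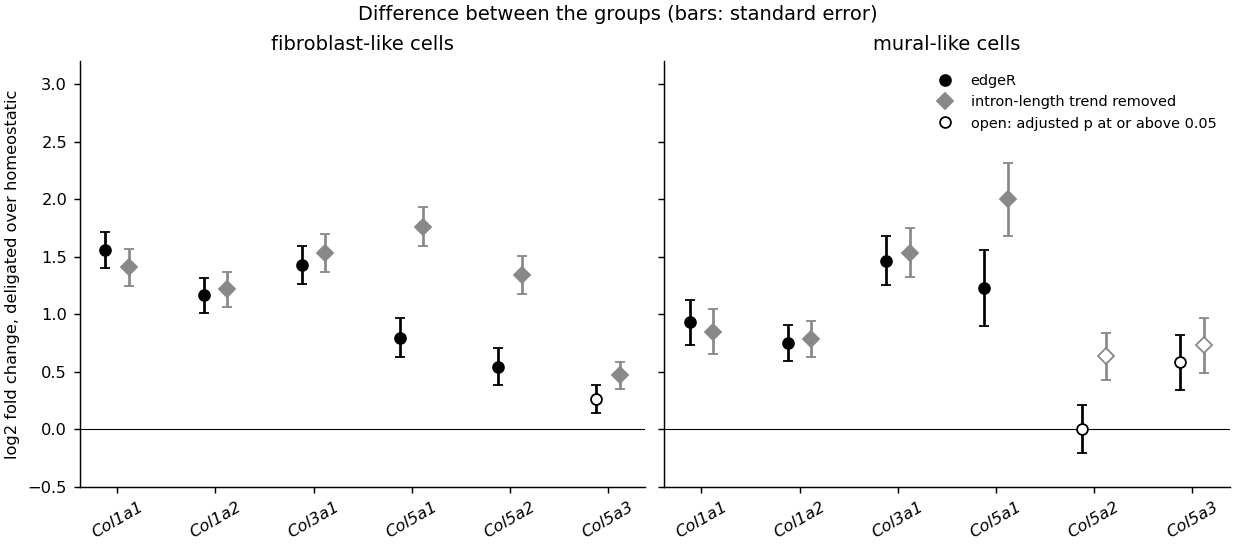
Log2 fold change of each member, deligated over homeostatic, in fibroblast-like and mural-like cells, with standard errors, from edgeR (black) and after removal of the trend over intron length (grey), open symbols having an adjusted p of at least 0.05. The grey points of Col5a1 and Col5a2 lie well above the black ones, and Col5a2 in mural-like cells moves from 0.00 to 0.63.

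Single fibroblasts shifted in the same direction, and cells of the groups overlapped. With every cell thinned to 1000 UMIs, the median fibroblast held 19 and 16 member UMIs in the deligated and 8 and 9 in the homeostatic libraries. The 10th percentile of deligated cells, 10.7 and 8, lay near the homeostatic medians, and the 90th percentile of homeostatic cells was 14 and 14.1. The 10% of cells richest in member UMIs held 20.2 to 22.7% of them in the 4 libraries. Cells with a UMI of all of Col1a1, Col1a2 and Col3a1 made up 94.7% and 91.7% of deligated and 59.7% and 68.7% of homeostatic fibroblasts after thinning.

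Before thinning, nearly every fibroblast-like cell held a UMI of the type I and III genes, with shares of 97.7 to 100%. After thinning, Col1a1 was found in 96.4% and 93.5% of deligated and in 69.7% and 76.7% of homeostatic cells, with 0 to 8 cells per library left out as shallower. Col5a3 was found in 43.5% and 41.1% against 39% and 38.7%, a narrow gap. In NK and innate lymphoid cells, which should lack these genes, the thinned share with Col1a1 was 0 to 1.48%, at median depths of 5490 to 6270 UMIs over the 4 libraries.

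The make-up of member UMIs in fibroblast-like cells also differed between the groups in the counts as deposited. Col1a1 gave 21.7% and 21.6% of them in the deligated and 17.4% and 17.2% in the homeostatic libraries, and Col3a1 gave 36.5% and 35.2% against 32.2% and 30.7%. Col5a2 gave 6.1% and 6.0% against 9.6% and 10.0%, and Col5a3 gave 2.59% and 3.35% against 5.67% and 5.73%. Col1a2 kept nearly the same share at 30.8% and 31.7% against 32% and 33.3%. No test was run on these shares, which sum to 100% and so move against each other. Col5a2 holds 119 kb of intron, and introns may have been counted in the homeostatic group alone. Its log2 fold change was 0.54 as counted and 1.34 with the intron trend removed. Whether its share, and with it the other shares, differs apart from that is uncertain.

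**Figure D4:**
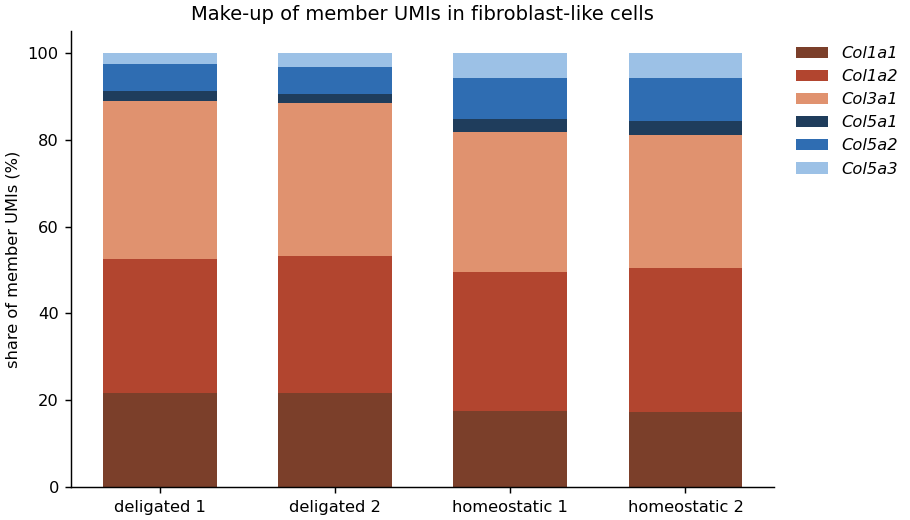
Share of each member (%) in the members' UMIs of fibroblast-like cells, 1 stacked bar per library. The Col1a1 and Col3a1 blocks are taller and the Col5a2 and Col5a3 blocks shorter in both deligated bars. Col5a2 holds 119 kb of intron, and introns may have been counted in the homeostatic group alone.

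Pi16 and Dpp4 mark adventitial-type fibroblasts, which line the outer wall of vessels and ducts. Both genes are also among the 10 markers of the fibroblast gate. Cells with a UMI of either gene made up 40.2% and 31.3% of fibroblast-like cells in the deligated and 14.2% and 12.2% in the homeostatic libraries, a share that can also move with depth. The deligated rise was found on both sides of the split. In cells without either UMI, Col1a1 was at 3916 and 3412 CPM in the deligated and 1394 and 1541 CPM in the homeostatic libraries, a log2 fold change of 1.36 (edgeR adjusted p = 5.94e-05). In cells with a UMI of either, it was at 6660 and 4643 against 2472 and 1812 CPM, a log2 fold change of 1.43 (edgeR adjusted p = 0.000193).

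Each side had 4 members called higher, beside 7.23% of genes in the cells without either UMI and 4.83% in those with one, and Col1a1, Col1a2 and Col3a1 were among them on both. Col5a1 was called only in the cells without either UMI, with a log2 fold change of 0.82 against 0.36 in the others, where deligated library 2 (419 CPM) lay between the homeostatic libraries (365 and 438 CPM). Col5a2 was called only in the Pi16/Dpp4-positive cells, at 0.79 against 0.42. Whether the rise differed between the sides was not tested. The positive subset held only 43 and 37 homeostatic cells, below the minimum of 50 used for whole classes.

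Within libraries, Pi16/Dpp4-positive fibroblasts were set against the other fibroblasts with the library as a block. Col3a1 was at 10829, 7742, 4596 and 3488 CPM in the positive and 6826, 5462, 2570 and 2716 CPM in the other cells of deligated libraries 1 and 2 and homeostatic libraries 1 and 2. It was higher in the positive cells of every library, with a log2 difference of 0.63 (standard error 0.12, edgeR adjusted p = 0.038). It was the only member called, against 1.03% of 11071 genes called higher, while 4 members were called without the low-count filter, 3 with DESeq2 and 2 under the stricter cell filter. Col1a1 (0.61, edgeR adjusted p = 0.0624) and Col1a2 (0.42, 0.113) missed the threshold, and Col5a2 (0.06) and Col5a3 (0.10) were near 0. No member was called when any 1 library was left out, where the log2 difference of Col3a1 ran from 0.55 to 0.72, nor in thinned cells or with at least 2 UMIs asked of the positive cells. Positive cells were also slightly deeper, with medians of 7084 to 13300.5 UMIs against 6479.5 to 12809, and cells of low depth can miss both genes.

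**Figure D5:**
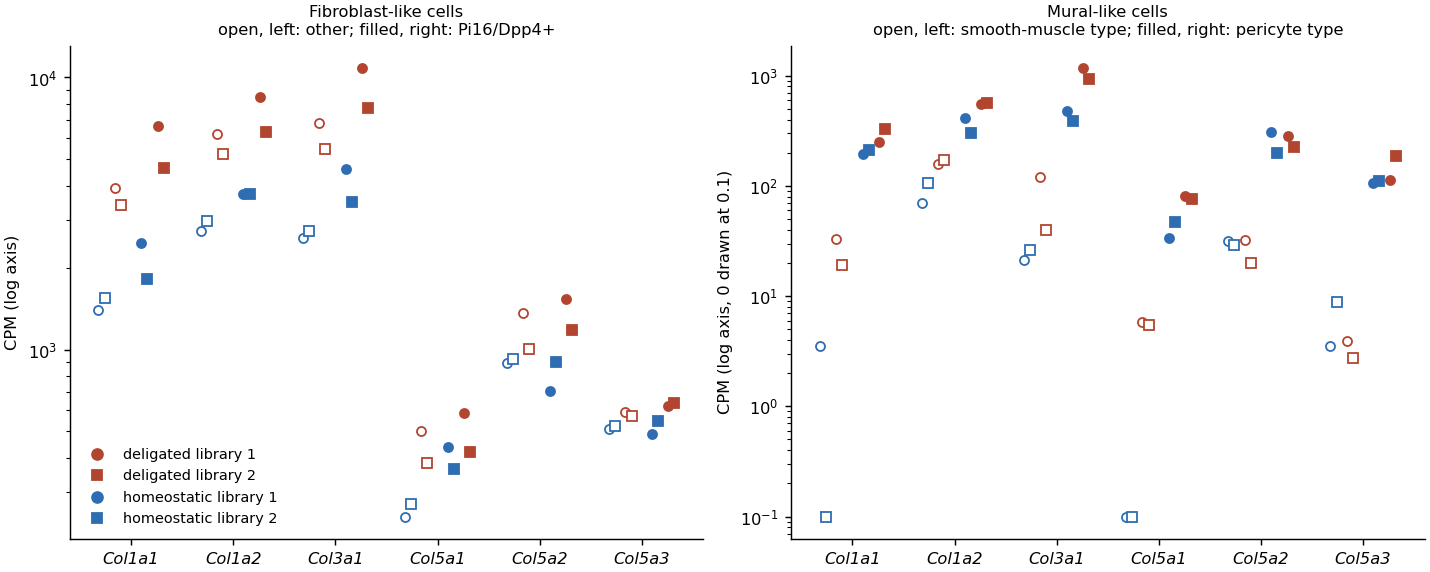
CPM of the members (log axis) in fibroblast-like cells without (open) and with (filled) a Pi16 or Dpp4 UMI, and in smooth-muscle-type (open) and pericyte-type (filled) mural-like cells, 1 point per library, values of 0 drawn at 0.1. Deligated points of Col1a1, Col1a2 and Col3a1 lie above homeostatic ones in both fibroblast subsets, and pericyte-type cells lie above smooth-muscle-type cells for every member and library.

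Mural-like cells numbered 310 and 418 in the deligated and 121 and 117 in the homeostatic libraries. Every member was lower in them than in fibroblast-like cells of the same libraries. The log2 differences, with the library as a block, ran from -4.88 (Col1a1, standard error 0.19) to -3.19 (Col5a2, standard error 0.16), with edgeR adjusted p between 3.45e-13 and 2.31e-11. All 6 members were called lower, beside 30.2% of 11766 genes, and all 6 under each of the 12 alternatives run.

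The same comparison between groups was made within mural-like cells. Col3a1 was at 569 and 409 CPM in the deligated and 203 and 149 CPM in the homeostatic libraries, a log2 fold change of 1.47 (standard error 0.21, edgeR adjusted p = 0.000608). Col1a1 was at 119 and 144 against 76.9 and 59 CPM, a log2 fold change of 0.93 (standard error 0.19, edgeR adjusted p = 0.00824). Col1a2 was at 335.2 and 335 against 206 and 187 CPM, a log2 fold change of 0.75 (standard error 0.16, edgeR adjusted p = 0.00894). The groups did not overlap for any of these 3 genes, and the share of all genes that separate in this way is not given.

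Col5a1 was at 38.7 and 33.9 against 15.7 and 14.7 CPM, a log2 fold change of 1.23 (standard error 0.33, edgeR adjusted p = 0.0344) that rests on 18 UMIs in both homeostatic libraries together. Col5a2 was at 137 and 102 against 129 and 108 CPM, so that the groups overlapped (log2 fold change 0.00, edgeR adjusted p = 0.998). Col5a3 was at 54.1 and 77.7 against 45.4 and 41 CPM, with a log2 fold change of 0.58 (edgeR adjusted p = 0.188). In sum 4 of 6 members rose in mural-like cells, beside 1.46% of 9669 genes called higher and 6.96% called lower. That count was 1 without homeostatic library 2, 3 without homeostatic library 1, 1 under a stricter cell filter and 2 with DESeq2 or with thinned cells. Col1a1 was not called without homeostatic library 2, under the stricter cell filter (0.62), with DESeq2, in pericyte-type cells (0.56) or in thinned cells, where its log2 fold change was 0.22 (edgeR adjusted p = 0.818). Thinned mural-like cells with a Col1a1 UMI made up 11.4% and 11.5% in the deligated and 13.8% and 7.14% in the homeostatic libraries, so that the groups overlapped. Col1a2 was not called without homeostatic library 2 or under the stricter cell filter, and Col5a1 was not called under 8 of 15 alternatives.

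Fibroblast markers were also read in the mural-like sums, and their part in the result was not tested beyond the subtraction given here. The 10 fibroblast markers summed to 75.2 and 138 CPM in the deligated and 69.9 and 49.2 CPM in the homeostatic libraries, against 21725 to 25498 CPM in fibroblast-like cells, with Dpp4 at 0 in all 4. Dcn stood at 19.4, 70.9, 14 and 13.1 CPM, and deligated library 2 also held 6558 CPM of erythroid markers against 35.1 to 145 in the other libraries. The 9 epithelial markers summed to 1.35 and 5.42 CPM in the deligated and 40.2 and 54.1 CPM in the homeostatic libraries. The 10 endothelial markers summed to 106 and 193 against 80.4 and 60.6 CPM, and the 4 plasma cell markers to 150 and 195 against 89.1 and 121 CPM. The part of these markers was not tested. After the level in T and NK cells of the same library was subtracted, Col1a1, Col1a2 and Col3a1 were still called (log2 fold changes 0.83, 0.71 and 1.42) and Col5a1 was not (edgeR adjusted p = 0.0546).

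Pericyte-type cells, which ensheathe capillaries, carried most of the mural-like signal. They numbered 149, 204, 59 and 44, and smooth-muscle-type cells 112, 169, 43 and 56. Col3a1 was at 1173 and 930 CPM in deligated and 479 and 390 CPM in homeostatic pericyte-type cells, against 120, 40.2, 21.1 and 26.3 CPM in smooth-muscle-type cells of the same libraries. Col5a3 was at 113, 187, 105 and 111 CPM in pericyte-type cells and 2.74 to 8.77 CPM in smooth-muscle-type cells. In the pericyte-type cells alone, of which homeostatic library 2 held fewer than the 50 asked of whole classes, Col1a2 and Col3a1 were called higher in the deligated group, beside 1.68% of genes, and Col5a2 again overlapped between groups, at 285 and 224 against 312 and 198 CPM.

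The deligation effect in mural-like cells was tested against that in fibroblast-like cells. The difference of log2 fold changes was -0.71 for Col1a1 (standard error 0.23, edgeR adjusted p = 0.158), -0.50 for Col1a2 (standard error 0.16, adjusted p = 0.133) and -0.64 for Col5a2 (standard error 0.18, adjusted p = 0.0753). It was -0.06 for Col3a1, 0.35 for Col5a1 and 0.22 for Col5a3. No member was called by edgeR or by DESeq2, beside 1.6% of 11766 genes in either direction, and 3 members had an unadjusted p under 0.05. Col1a1 was called without the low-count filter (-0.67, edgeR adjusted p = 0.0316) and under the stricter cell filter (-0.99, adjusted p = 0.0475), and Col1a1 and Col1a2 were called without deligated library 2 (-1.02 and -0.64). The call thus depends on the setting for Col1a1 and Col1a2, and Col5a2 was called under none of the 12 alternatives.

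Schwann-like cells numbered 27 and 58 in the deligated and 49 and 52 in the homeostatic libraries. No test was run on them, since a class was tested only with at least 50 cells in every library, and their values are a description. Col1a1 was at 813 and 751 CPM in the deligated and 177 and 90.3 CPM in the homeostatic libraries, and Col5a2 at 662 and 385 against 165 and 111 CPM. Col3a1 was at 1668 and 1452 against 690 and 398 CPM. For 5 members the groups did not overlap, and Col5a1, at 221 and 179 against 214 and 103 CPM, did. The share of all genes that separate in this way is not given, so this count is no result about the members. In these sums the fibroblast-defining genes Pdgfra, Dpt, Dpp4 and Scara5 were at 0 in all 4 libraries and Dcn was at 0 to 42.8 CPM, while the 10 fibroblast markers together summed to 689, 479, 336 and 193 CPM. Erythroid markers stood at 18357, 234, 16142 and 57.4 CPM, and their part in these levels was not tested. Their glial marker Sox10 (353 to 646 CPM) was present throughout.

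Endothelial-like cells, 1904, 3200, 4153 and 4186 in the 4 libraries, line the vessels and held few member UMIs. Most cells of the groups lay in different clusters: the largest endothelial cluster held 0, 1, 2634 and 2685 cells and the next 1511, 2657, 24 and 24. The 10 fibroblast markers summed to 25.4 and 78.7 CPM in the deligated and 18.4 and 14.6 CPM in the homeostatic endothelial-like sums, and the 9 epithelial markers to 1.82 and 5.43 against 52.6 and 60.5 CPM. The part of these markers in the result was not tested. Col3a1 was at 8.43 and 23.8 CPM in the deligated and 3.13 and 1.44 CPM in the homeostatic libraries. In NK and innate lymphoid cells of the same libraries, which should lack the genes, it was at 9.49, 21.1, 0.92 and 0.84 CPM. The log2 fold changes in endothelial-like cells were 2.88 for Col1a1, 2.91 for Col1a2 and 2.84 for Col3a1 (edgeR adjusted p = 0.00684, 0.00449 and 0.0104), beside 13.3% of 13568 genes called higher. Col5a1 was called too (2.06, edgeR adjusted p = 0.021), but it passed the low-count filter through the deligated libraries alone. With the T and NK level subtracted, Col1a1, Col1a2 and Col5a1 had no fit, and none of the other members was called higher. Col3a1 then changed sign to -1.70 (edgeR adjusted p = 0.226). Col5a3 was called lower at -1.92 (edgeR adjusted p = 0.0233), beside 22.6% of genes called lower before the subtraction. In the deligated libraries the type I and III levels of endothelial-like cells lay near those of NK and innate lymphoid cells or below them. In the homeostatic libraries their CPM stood above those levels, but the 52 and 24 UMIs of Col3a1 lay in 16 and 17 cells, 0.39% and 0.41% of endothelial-like cells, against 0.62% and 0.58% of the deeper NK and innate lymphoid cells. For Col1a1 these shares were 0.17% and 0.24% against 0.72% and 0.29%. Whether these values are expression was not tested.

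Col5a2 and Col5a3 were not called in the vessel lining. Col5a3 was at 1.35 and 4.13 CPM in the deligated and 1.98 and 0.96 CPM in the homeostatic endothelial-like cells, so that the groups overlapped (log2 fold change 0.93, edgeR adjusted p = 0.244), and at 1.07, 3.65, 0.31 and 0 CPM in NK and innate lymphoid cells. Col5a2 was at 8.83 and 7.36 CPM in the deligated and 8.78 and 9.55 CPM in the homeostatic endothelial-like cells, with a log2 fold change of -0.16 (standard error 0.17, edgeR adjusted p = 0.513). In NK and innate lymphoid cells it was at 1.97, 4.49, 0.46 and 0.56 CPM. It made up 51.2% and 65.2% of member UMIs in homeostatic endothelial-like cells, against 9.6% and 10.0% in homeostatic fibroblast-like cells. In the deligated libraries it made up 28.8% and 11.4% in endothelial-like cells, against 6.1% and 6.0% in fibroblast-like cells. A UMI of it was found in 2.31% and 2.20% of homeostatic endothelial-like cells and in 0.31% and 0.39% of NK and innate lymphoid cells, the latter being the deeper cells. After thinning these shares were 0.72% and 0.69% against 0.10% and 0.10%. The shares of the deligated libraries are not given, and in deligated library 2 the levels of these classes lay closer, at 7.36 against 4.49 CPM.

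Genes that process collagen chains in the endoplasmic reticulum moved in part with the members in fibroblast-like cells. Of 19 tested, 8 rose and 2 fell, beside 8.88% and 18.3% of all genes, with a median log2 fold change of 0.42. Crtap, part of the prolyl 3-hydroxylation complex, went from 85.7 and 88.2 to 159 and 162 CPM (log2 fold change 0.93, edgeR adjusted p = 0.000408). Fkbp10, a collagen chaperone, went from 46.1 and 45.3 to 83.4 and 78.9 CPM (0.88, edgeR adjusted p = 0.00141), a call lost without homeostatic library 1, in thinned cells (adjusted p = 0.0735) and in Pi16/Dpp4-positive cells alone. Fkbp10 overlaps Nt5c3b and P3h2, named next, overlaps Gm4524, each on the other strand. Reads of such a pair cannot be separated without strand. P3h2, a prolyl 3-hydroxylase, fell by 1.78 on the log2 scale and Colgalt2, a collagen galactosyltransferase, by 1.60 (edgeR adjusted p = 8.23e-05 and 0.000156). These 2 genes hold 143 and 107 kb of intron, and with that trend removed they fell by 0.83 and 0.88 and were still called, while Colgalt2 was not called in Pi16/Dpp4-positive cells alone (edgeR adjusted p = 0.0978).

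Of 12 genes of procollagen export tested, 1 rose and 3 fell, with a median log2 fold change of -0.31. These counts are near the shares of all genes, 8.88% higher and 18.3% lower, and are no result about the list. Sec24d, a coat protein of the carriers that leave the endoplasmic reticulum, went from 178 and 165 to 94.3 and 99.8 CPM (-0.77, edgeR adjusted p = 0.00124), but stood at -0.15 (adjusted p = 0.466) with the intron trend removed and was not called without homeostatic library 1. Klhl12, an adaptor for the ubiquitin ligase that enlarges these carriers, fell by 1.10 (edgeR adjusted p = 0.00273) and holds 24.1 kb of intron. Preb, which activates the coat's GTPase, fell by 0.69 (edgeR adjusted p = 0.014) and holds 2.3 kb. Sar1a, that GTPase, rose by 0.43 (edgeR adjusted p = 0.0265), and was at 0.26 (adjusted p = 0.18) with the trend removed. Neither Preb nor Sar1a was called without either homeostatic library or with DESeq2, and Klhl12 was not with DESeq2. None of these 3 was called in Pi16/Dpp4-positive cells alone.

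Of 14 genes of propeptide cleavage and fibril assembly tested, 10 passed the low-count filter in both groups, and 6 of these rose and 2 fell, beside 8.88% and 18.3% of all genes. Sparc, a collagen-binding protein that guides fibril formation, was at 5349 and 3682 CPM in the deligated and 1578 and 1496 CPM in the homeostatic libraries (log2 fold change 1.62, edgeR adjusted p = 8.14e-05). Bgn, which encodes the small proteoglycan biglycan, was at 2756 and 2801 against 1155 and 1223 CPM (1.28, edgeR adjusted p = 2.22e-05). Fmod and Tll1 are not among them, since each passed the filter only through the group where it is high and had to differ. Fmod, encoding fibromodulin, was at 25.8 and 16.3 against 2.97 and 0 CPM (3.83, edgeR adjusted p = 0.000876, not called with DESeq2). With 1 homeostatic library at 0 the fitted size of that change is unstable, at 2.86 without homeostatic library 2 and 9.43 without homeostatic library 1. Tll1, a propeptide-cleaving protease, was at 0.68 and 2.08 against 13.9 and 13.9 CPM (-3.18, edgeR adjusted p = 0.000393). The log2 fold change of Tll1 was -2.03 with the intron trend removed, -2.69 without deligated library 1 and -4.16 without deligated library 2.

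The other collagens of fibrils were sparse. Of the other fibrillar collagens 3 were tested, 1 passed the low-count filter in both groups, and that one was not called. Col11a1 passed only through the deligated group, where it was at 8.61 and 7.63 CPM against 0.99 and 1.99 CPM (log2 fold change 2.47, edgeR adjusted p = 0.00374). It was not called without homeostatic library 1, with DESeq2 or in Pi16/Dpp4-positive cells alone. Of 4 fibril-associated collagens, which sit on the fibril surface, 3 passed in both groups and 1 of these was called, too few to set against the 8.88% and 18.3% of all genes. Col16a1 rose from 66.4 and 68.7 to 152 and 120 CPM (1.06, edgeR adjusted p = 0.000839), but was not called in thinned cells (0.68, adjusted p = 0.097) or in Pi16/Dpp4-positive cells alone (0.66). Col20a1 passed only through the homeostatic group, where it was at 9.41 and 8.47 CPM against 0.91 and 2.08 CPM (-2.45, edgeR adjusted p = 0.00259), and was not called without homeostatic library 1.

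Of 7 tested collagen receptors and uptake genes 1 rose and 2 fell, which is near the 8.88% and 18.3% of all genes and no result about the list. Itga1, an integrin chain that binds collagen, rose by 0.71 (edgeR adjusted p = 0.00457), but its value is uncertain since Pelo overlaps it on the same strand. Itga11, an integrin chain for fibrillar collagen, fell by 0.77 and Ddr2, a receptor kinase for fibrillar collagen, by 0.48 (edgeR adjusted p = 0.0191 and 0.0345). Ddr2 overlaps 3110045C21Rik on the other strand. With the intron trend removed Itga11 was at -0.09 and Ddr2 at 0.39, and neither was called. None of the 3 was called when either homeostatic library was left out. In Pi16/Dpp4-positive cells alone Itga11 was at -2.40 and Ddr2 at -1.55, and in the other fibroblasts at -0.04 and -0.19, a difference that was not tested.

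In mural-like cells, where 1.46% of all genes were called higher and 6.96% lower, few genes of these lists were called. Of 19 processing genes Kdelr3, a retrieval receptor of the endoplasmic reticulum, rose by 1.83 and P3h2 fell by 2.22 (edgeR adjusted p = 0.021 and 1.76e-05). Kdelr3 overlaps Ddx17 and P3h2 overlaps Gm4524 on the other strand. Of 12 export genes none rose, and Klhl12 and Sec24d fell by 1.87 and 1.15. P3h2 and Sec24d hold 143 and 91.9 kb of intron. The log2 fold change also correlated with intron length in mural-like cells (Spearman -0.44). The part of this trend in these falls was not tested. Of 8 assembly genes 5 passed the filter in both groups, and of these Pcolce and Bgn rose by 0.77 and 0.79. Kdelr3 and Bmp1 (log2 fold change 2.09) passed only through the deligated and Klhl12 only through the homeostatic libraries, where each is high. Bmp1 cleaves the end propeptides and Pcolce, which overlaps Fbxo24 on the same strand and is uncertain for that reason, speeds that step.

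The likeness of pattern was described over 34 sums of class and library and 9737 genes, which share libraries and depth and are not independent. The other members apart, Col1a1, Col1a2 and Col3a1 were most like Col6a3, Col6a1 and Col6a2, the chains of type VI collagen, with Pearson correlations of log2(CPM + 1) between 0.95 and 0.98. Among genes that are no member, Col5a1 was nearest to Entpd2, Zfhx4 and Abca8a, and Col5a3 to Zfhx4, Entpd2 and Oaf, with correlations of 0.96 to 0.98. Col5a2 was nearest to Nnmt, Fam171b and Serping1 at 0.95 to 0.96. Entpd2 is one of the markers that defined the fibroblast-like cells. Several members were closer to each other than to these genes. Among the members, Col5a1 and Col5a3 were the closest pair (0.98) and Col1a1 and Col5a2 the least alike (0.89).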

How the data were processed

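The deposited matrices hold raw UMI counts per gene and barcode, made by the authors with Cell Ranger 6.0.1 (deligated) and 7.0.0 (homeostatic) per the file headers. The submitters' processing notes name Cell Ranger 6.0.1, mm10 and Seurat. Whether intronic reads or strand were counted is not given in the sources used here. Of 31053 gene identifiers, 31011 (99.9%) matched GENCODE M21.

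Cells with at least 300 genes and at most 10% mitochondrial UMIs were kept. A class needed 4 of its 10 markers (fibroblast, mural, endothelial) or 3 (others). These numbers were set with marker counts in view, and dropping cells of more than 1 class stood in for doublet removal. Pericyte-type and smooth-muscle-type cells needed 2 of 4 markers of their kind and more than of the other kind. The UMIs of each class were added up within a library and tested with edgeR 4.0.16 (quasi-likelihood, TMM, filterByExpr, Benjamini-Hochberg over all genes, threshold 0.05), with DESeq2 1.42.0 as an alternative. Whole classes under 50 cells in a library were not tested, a minimum not applied to subsets. The fit was tested on simulated data. The trend over intron length was a loess fit with a span of 0.5.

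Members and gene lists were chosen with earlier results of these data known. All 6 members were named. From each list up to 4 genes called in fibroblast-like cells with the lowest adjusted p were named, and for each member the 3 genes of highest Pearson correlation over genes with a mean of at least 10 CPM. Genes named from the mural-like lists are those called there, chosen after their values were seen.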

Additional observations from a re-analysis of the deposited data

How the results depend on the processing

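The call that all 6 members were lower in mural-like than in fibroblast-like cells held under all 12 alternatives. Col1a1, Col1a2 and Col3a1 were called higher in deligated fibroblast-like cells under every alternative that kept 2 libraries per group. Over all 18 alternatives their log2 fold changes were 1.31 to 1.80, 0.94 to 1.39 and 1.15 to 1.69. The same held for Col3a1 in mural-like cells, at 1.18 to 1.74 over 16 alternatives. In comparisons between groups with 1 library left out, the spread comes from the other group alone. A call there is no sign of stability. The count in fibroblast-like cells, 5, was 3 in cells thinned to 1000 UMIs and 3 to 6 with 1 library left out. The count in mural-like cells, 4, was 1 under the stricter cell filter, 2 in thinned cells, 2 with DESeq2, 2 in pericyte-type cells and 1 to 5 with 1 library left out. In endothelial-like cells, 4 members called, all higher (Col5a1 having passed the filter through the deligated libraries alone), became 1, Col5a3 called lower, with the T and NK level subtracted, and the count was 3 to 5 with 1 library left out. For the difference in effect, 0 became 1 without the low-count filter, 1 under the stricter cell filter and 0 to 2 with 1 library left out. For Pi16/Dpp4-positive cells, 1 became 4 without the low-count filter, 2 under the stricter cell filter, 3 with DESeq2, 0 in thinned cells, 0 with at least 2 UMIs of Pi16 or Dpp4 and 0 with any 1 library left out. The median share of fibroblast-like cells with a UMI of a member, 97.9%, was 71.7% after thinning. The alternatives by subset were chosen after seeing the data. After the subtraction in endothelial-like cells Col1a1, Col1a2 and Col5a1 had no fit. The cause of these shifts was not tested.

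Most changes of sign were in values near 0. Col5a2 in mural-like cells was above 0 with RLE size factors (0.0107), no low-count filter (0.0515), a stricter marker gate (0.106), doublet scores (0.155), Leiden clusters (0.0929), DESeq2 (0.0292), the intron trend removed (0.632) and pericyte-type cells (0.0447), and ran from -0.262 to 0.256 with 1 library left out. Col5a2 in endothelial-like cells was at 0.16 in thinned cells, at 0.51 with the intron trend removed, and ran from -0.325 to 0.0318 with 1 library left out. There Col5a3 ran from -0.0404 to 1.51 with 1 library left out and was at -1.92 with the T and NK level subtracted, which put Col3a1 at -1.70. The effect difference of Col3a1 was above 0 with RLE (0.00368), a stricter marker gate (0.0447), doublet scores (0.00782), thinned cells (0.23) and DESeq2 (0.0127), and ran from -0.184 to 0.161 with 1 library left out. That of Col5a3 ran from -0.0390 to 0.471. Col5a2 in Pi16/Dpp4-positive cells was at -0.0540 in thinned cells and -0.0679 with at least 2 UMIs. Ddr2 was at 0.39 with the intron trend removed.

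The replicate number was not taken as pairing, since deviations of same-numbered libraries correlated at 0.04 (fibroblast-like) and 0.02 (mural-like) and the labels give no shared origin. With it as a replicate block the counts were 5, 3 and 4 in fibroblast-like, mural-like and endothelial-like cells. The call of Col5a1 in mural-like cells rests on 18 homeostatic UMIs.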
